A study of Mus musculus with 6 samples.

Results

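The 9 genes described here are the endothelin axis of the first branchial arch and the transcription factors that mark its lower, mandibular part. They were chosen by name: the ligands Edn1 and Edn3, the receptors Ednra and Ednrb, the converting enzyme Ece1, and the transcription factors Hand1, Hand2, Gsc and Gbx2. Each symbol matched 1 of the 53801 genes in the count files. RNA was sequenced from maxillary prominences of mouse embryos at E12.5 (strain label C57BL/6, with C57BL/6J given for the model's background and the wild-type mice), in 3 wild-type (WT) samples and 3 samples labelled Wnt1cre; Rosa26Dlx2/- (Dlx2OE). Dlx2OE embryos carry a CAG-LSL-Dlx2-3xFlag cassette at the Rosa26 locus, in which a stop sequence keeps Dlx2 silent until Cre removes it. Cre is driven by Wnt1, so the added Dlx2 belongs to cells derived from the neural crest, while epithelium, endothelium and muscle in the same tissue piece keep their own alleles. The labels do not give Cre or the cassette for WT embryos. RNA came from 7 littermates according to the labels and from 6 according to the methods. How embryos were divided over the samples is not stated, so a sample may hold more than 1 embryo, and p-values measure the spread between these samples. The question was whether Dlx2 overexpression adds mandibular, ventral identity to the upper jaw.

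In the mandibular arch, Edn1 is made by epithelium, arch mesoderm and endothelium, is cut to its active form by Ece1, and signals through Ednra on neural crest-derived mesenchyme. The receptor acts through G proteins of the Gq and G11 class and, with Mef2c, switches on Dlx5 and Dlx6, which in turn act on Hand2 and other ventral genes. In the maxillary prominence this route is largely off, and genes such as Pou3f3 mark the upper jaw instead. Edn3 and Ednrb form a second ligand and receptor pair, best known from melanoblasts and enteric neural crest cells.

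Since Dlx factors bind short homeodomain motifs around TAATT, the 250 bases before the annotated start were searched for TAATT on both strands, so that AATTA is its reverse complement and TAATTA counts on both. Sequences are from RefSeq on GRCm38.p6. Entries were found for 8 of the 9 members in 11 windows, and not for Hand1. Windows of 3 members held the motif: Hand2 with 3 matches, Edn1 with 1 and Gbx2 with 1. Among 32851 windows of the same length, 25.0% held at least 1 match and 9.43% held 2 or more. The windows with matches follow, 5′ to 3′ on the strand of the gene, with the matches in capitals. They are chr8:57320733-57320982 on the forward strand for Hand2, chr13:42301226-42301475 on the forward strand for Edn1, and chr1:89931177-89931426 on the reverse strand for Gbx2. A match describes the letters only, and binding was not measured.

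Hand2: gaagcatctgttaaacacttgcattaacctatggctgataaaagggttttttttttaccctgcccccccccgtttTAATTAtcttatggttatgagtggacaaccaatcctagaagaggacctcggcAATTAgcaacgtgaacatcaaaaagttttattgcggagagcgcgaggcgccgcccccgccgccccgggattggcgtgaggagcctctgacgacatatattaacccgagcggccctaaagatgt

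Edn1: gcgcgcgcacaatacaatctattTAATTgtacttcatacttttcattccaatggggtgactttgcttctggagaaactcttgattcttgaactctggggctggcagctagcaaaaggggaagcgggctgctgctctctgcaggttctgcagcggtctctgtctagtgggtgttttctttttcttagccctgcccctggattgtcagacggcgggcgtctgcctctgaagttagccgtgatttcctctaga

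Gbx2: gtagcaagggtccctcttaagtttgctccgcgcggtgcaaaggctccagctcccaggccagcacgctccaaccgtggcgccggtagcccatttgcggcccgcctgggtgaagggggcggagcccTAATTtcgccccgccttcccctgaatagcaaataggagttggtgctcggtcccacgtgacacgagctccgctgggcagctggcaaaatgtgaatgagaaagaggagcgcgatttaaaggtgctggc

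The samples had 26155500 to 31308813 counts on genes, and a floor of 3 counts stands at 0.0955 to 0.111 CPM (counts scaled to a common library total). All levels below are CPM scaled by the TMM method unless a length is named. Dlx2 was the check of the labels: it had 42.9, 35.0 and 45.2 CPM in WT samples 1 to 3 and 118.8, 130.6 and 123.2 CPM in Dlx2OE samples 1 to 3, a log2 fold change of 1.60 (SE 0.118, edgeR adjusted p = 0.00241). The count does not separate transgene from endogenous Dlx2. Dlx2OE sample 1 stood apart on the second principal component, and Dlx2OE sample 3 had 14.7% of its reads outside genes, against 5.03% to 7.81% in the other 5 samples. Facial mesenchyme markers, which fit the tissue label, summed to 1546 to 1851 CPM in WT and 2067 to 2495 CPM in Dlx2OE, with Twist1 (0.65, adjusted p = 0.0402) and Alx4 (1.39, adjusted p = 0.0211) higher on the log2 scale. The list was not uniform: 6 of its 8 markers had a log2 fold change above 0 and 2 below, of which Barx1, named after its value was seen, had -0.68 (edgeR adjusted p = 0.153) with no overlap of the groups. Other cell types moved too. Surface epithelium markers summed to 692 to 1224 CPM in WT and 547 to 1700 CPM in Dlx2OE, where sample 1 was highest, and Krt8 (-2.11, adjusted p = 0.00939) and Krt18 (-1.85, adjusted p = 0.0233) were lower. Krt5 of the same list, named after its value was seen, lay the other way at 1.91 (edgeR adjusted p = 0.0792), also with no overlap of the groups. Endothelium markers summed to 310 to 460 CPM in WT and 223 to 354 CPM in Dlx2OE, and Emcn was lower (-0.97, adjusted p = 0.0464), with Cldn5 at -0.68 (adjusted p = 0.0700). Melanoblast markers summed to 33.3 to 39.4 CPM and 39.2 to 48.4 CPM, and Dct (2.18, adjusted p = 0.0104) and Pmel (2.04, adjusted p = 0.0381) were higher. Neuron markers ran from 60.8 to 292 CPM in WT and from 186 to 868 CPM in Dlx2OE, and none passed (Pou4f1 4.47, adjusted p = 0.0844, and Stmn2 2.08, adjusted p = 0.0885). Crest glia markers ran from 153 to 168 CPM and from 112 to 332 CPM with Foxd3 at 0 in every sample, and none passed (Fabp7 2.16, adjusted p = 0.157). Neural tube and forebrain markers ran from 15.1 to 99.2 CPM and from 28.9 to 83.1 CPM, with Emx2 higher (1.61, adjusted p = 0.0218) and Otx2 at -3.18 (adjusted p = 0.0628). Autonomic neuron markers ran from 49.1 to 84.3 CPM in WT and only up to 44.2 CPM in Dlx2OE, with Dbh lower (-5.89, adjusted p = 0.0102). Of the 5 autonomic markers tested, 2 had a log2 fold change above 0 and 3 below. Th of this list, named after its value was seen, lay at 3.55 (edgeR adjusted p = 0.127), with overlap of the groups. Heart muscle markers ran from 19.0 to 42.5 CPM and from 9.05 to 24.5 CPM (Tnnt2 -1.18, adjusted p = 0.126, and Myh7 -1.16, adjusted p = 0.139), and skeletal muscle markers from 92.5 to 166 CPM and from 60.2 to 114 CPM (Myf5 -1.17, adjusted p = 0.0948, and Des -0.76, adjusted p = 0.246). In RNA from whole tissue, fewer cells of a type and less RNA per cell cannot be told apart.

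No member passed the test between genotypes. Of the 9 members, 8 had enough counts to be tested, and 0 had an adjusted p under 0.05 by edgeR's quasi-likelihood test, by DESeq2 or at the additional limit of a log2 fold change beyond 1. Over all 17514 genes tested, 6.45% passed at that adjusted p (2.99% higher and 3.46% lower in Dlx2OE), and 3.12% also passed the limit on fold change. By DESeq2, 12.6% of the genes it tested passed at that adjusted p, at any fold change. At an unadjusted p under 0.05 the count was 1 of 8 members, Ednra, against 29.5% of all genes. The log2 fold changes of the members had a median of -0.07, with 3 above 0 and 5 below, and the median over all genes tested was 0.0028. Without Dlx2OE sample 1, Gbx2 passed, as described below.

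**Figure D1:**
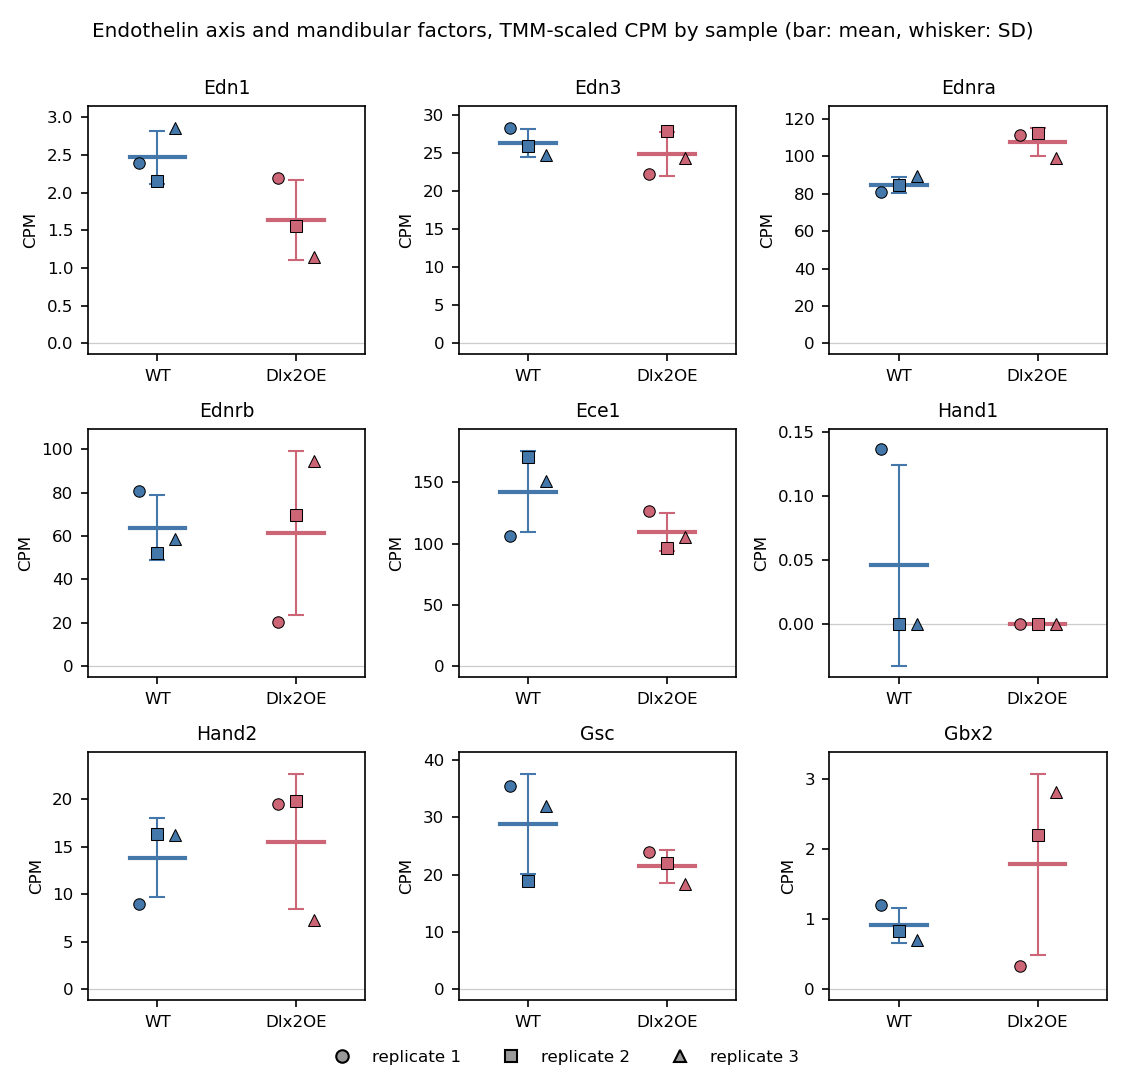
TMM-scaled CPM (vertical axis, from 0) of the 9 members in the 3 WT and 3 Dlx2OE samples. Symbols are single samples by replicate number, thick lines are means and whiskers are SDs. The groups do not overlap for Ednra, where WT spans 80.7 to 89.3 CPM and Dlx2OE 98.9 to 112.5 CPM, and they overlap for the other 8 genes.

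Edn1, the ligand of mandibular patterning, was low in the maxillary prominence of both genotypes. The gene (ENSMUSG00000021367) lies on the forward strand of chromosome 13, from 42301476 to 42307990 in GRCm38. It had 2.39, 2.16 and 2.85 CPM in WT samples and 2.19, 1.56 and 1.14 CPM in Dlx2OE samples. The highest Dlx2OE sample lay just above the lowest WT sample, so the groups overlapped. The log2 fold change was -0.59 (95% confidence interval -1.29 to 0.10, edgeR adjusted p = 0.227), so a level in Dlx2OE above 1.07 times that in WT lay outside the interval. Endothelium, a tissue that makes Edn1, had 8 of 8 tested markers with a log2 fold change below 0 (median -0.38). The sum of these markers overlapped between genotypes. In Dlx2OE samples 1 to 3 it was 223, 354 and 308 CPM, lowest where Edn1 was highest. Surface epithelium, another such tissue, summed to 1700, 553 and 547 CPM in these samples, in the order of Edn1. In WT samples 1 to 3 the sums were 460, 310 and 387 CPM for endothelium and 692, 1224 and 932 CPM for epithelium. Both stood in another order than Edn1 there. The part of these tissues in the Edn1 values was not tested.

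Edn3, the ligand with high affinity for Ednrb, had 28.3, 25.9 and 24.7 CPM in WT samples and 22.3, 27.9 and 24.4 CPM in Dlx2OE samples. Values of both groups were interleaved. The log2 fold change was -0.08 (SE 0.126, 95% confidence interval -0.37 to 0.21, edgeR adjusted p = 0.696), the second narrowest interval of the members.

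Ednra, the receptor through which Edn1 patterns the mandible, was the only member whose groups did not overlap. It lies on the reverse strand of chromosome 8, from 77663031 to 77724464. WT samples had 80.7, 84.5 and 89.3 CPM, and Dlx2OE samples had 111.3, 112.5 and 98.9 CPM. All 3 Dlx2OE samples lay above all 3 WT samples, a pattern that 16.7% of all genes tested showed in this direction and 34.1% in either direction. Means were 84.8 ± 4.30 CPM for WT and 107.6 ± 7.53 CPM for Dlx2OE (SD over 3 samples), a fold of 1.27 with a 95% confidence interval of 1.09 to 1.48. The log2 fold change of 0.34 (SE 0.0954) had an edgeR adjusted p of 0.0671 and a DESeq2 adjusted p of 0.0716, so it did not pass. An exact two-sided permutation test gave p = 0.1, the smallest that 3 against 3 samples allow. Facial mesenchyme markers, from the cells that carry Ednra, were also higher in sum in all Dlx2OE samples, though not each of them, and their part in the Ednra values was not tested. The genes most like Ednra over the 6 samples, by root mean square distance of centred log2 CPM among 13225 genes, were Ankrd29 (0.0162), Ddx51 (0.0322) and Tti1 (0.0338).

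Ednrb, the receptor of melanoblasts and glial precursors, varied more among Dlx2OE samples than between genotypes. WT samples had 80.7, 52.4 and 58.7 CPM. Dlx2OE samples had 20.2, 69.5 and 94.4 CPM, so the lowest and the highest of all 6 values were both Dlx2OE. Between genotypes the log2 fold change was -0.06 (SE 0.463, 95% confidence interval -1.13 to 1.01, edgeR adjusted p = 0.942), and without Dlx2OE sample 1 it was 0.35 (adjusted p = 0.275). Among Dlx2OE samples, the summed crest glia markers were also lowest in sample 1 and highest in sample 3. Erbb3 and Mbp of that list, named after their values were seen, were lowest in sample 2. In WT samples 1 to 3 the crest glia markers summed to 153, 168 and 167 CPM, in another order than Ednrb. Melanoblast markers summed to 33.3, 37.0 and 39.4 CPM in WT and 47.5, 39.2 and 48.4 CPM in Dlx2OE. Both orders differed from that of Ednrb. The part of these cell types in the Ednrb values was not tested.

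Ece1, the enzyme that releases active endothelin, had 106.2, 170.3 and 150.7 CPM in WT samples. Dlx2OE samples had 126.3, 96.3 and 105.2 CPM. WT sample 1 lay within the Dlx2OE range. Its log2 fold change was -0.38 (SE 0.183, 95% confidence interval -0.81 to 0.04, edgeR adjusted p = 0.204).

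**Figure D2:**
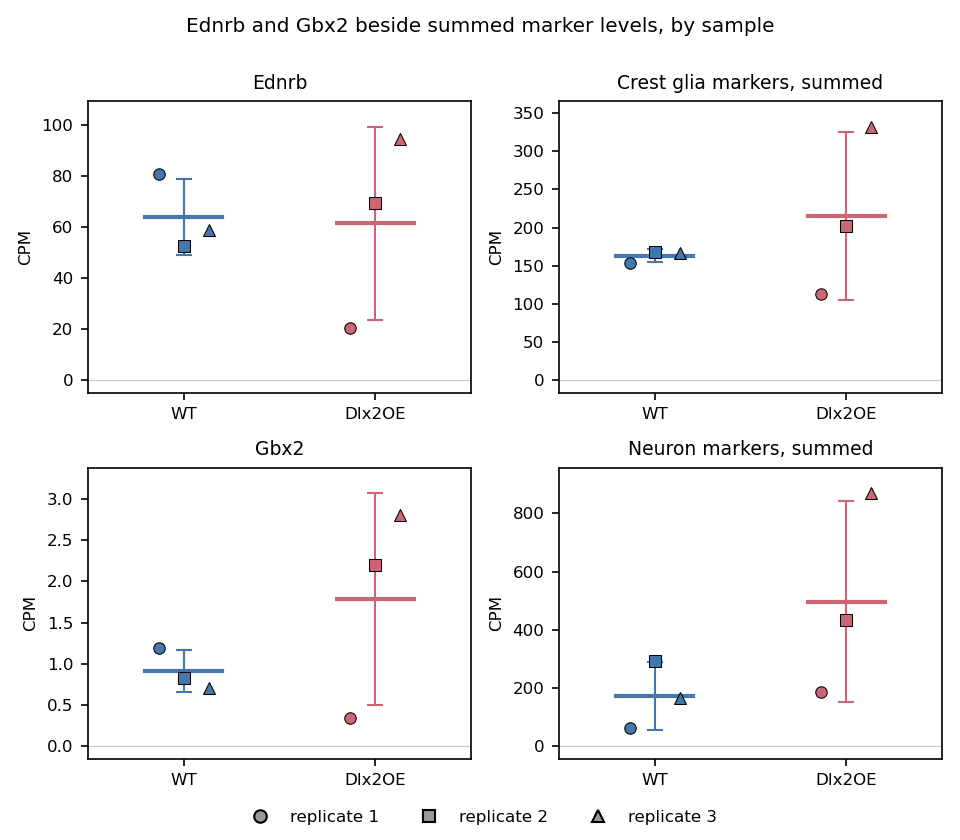
TMM-scaled CPM (vertical axis, from 0) of Ednrb and Gbx2 on the left and of summed crest glia and neuron markers on the right, by sample. Lines are means and whiskers SDs of 3 samples. In Dlx2OE, sample 1 is lowest and sample 3 highest in all 4 panels.

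Hand2, the main ventral factor downstream of Edn1, showed no shift between genotypes beyond its spread. It lies on the forward strand of chromosome 8, from 57320983 to 57324633. WT samples had 9.02, 16.3 and 16.3 CPM, and Dlx2OE samples had 19.5, 19.8 and 7.35 CPM. Dlx2OE samples 1 and 2 were above every WT sample, and Dlx2OE sample 3 was below every WT sample. The log2 fold change was 0.17 (95% confidence interval -0.72 to 1.06, edgeR adjusted p = 0.793), which leaves any level from 0.606 to 2.08 times that of WT inside the interval. Exons of Hand2 share 461 bp with the antisense gene Hand2os1, and the library kit does not mark strand, so reads of the pair cannot be told apart there. Hand2os1 had 198, 367 and 278 counts in WT and 198, 396 and 115 counts in Dlx2OE, with the lowest value in the same sample as Hand2 (log2 fold change -0.24, edgeR adjusted p = 0.708).

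Hand1, a partner of Hand2 in the distal mandible and the heart, was not tested. It had 4 counts in WT sample 1 and 0 in the other 5 samples. A count of 0 allows up to 3 counts, 0.0955 to 0.111 CPM in these libraries, and no appearance of Hand1 in Dlx2OE was detectable at this depth.

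Gsc, a homeobox gene of both jaw primordia that needs Edn1 in the mandible, had 35.5, 19.0 and 32.0 CPM in WT samples. In Dlx2OE samples it had 24.0, 22.1 and 18.4 CPM. WT sample 2 lay among the Dlx2OE values. Its log2 fold change was -0.42 (SE 0.230, 95% confidence interval -0.95 to 0.11, edgeR adjusted p = 0.253).

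Gbx2, a homeobox gene of the ventral arch and of the neural tube, was close to the low end of what was counted. It had 35, 25 and 22 counts in WT and 10, 69 and 76 counts in Dlx2OE, or 1.20, 0.830 and 0.706 CPM and 0.338, 2.20 and 2.81 CPM. Dlx2OE samples 2 and 3 were above every WT sample, and Dlx2OE sample 1 was below every WT sample. With all samples the log2 fold change was 0.96 (SE 0.646, 95% confidence interval -0.53 to 2.45, edgeR adjusted p = 0.345). Without Dlx2OE sample 1 it was 1.45 (edgeR adjusted p = 0.0330), so this 1 library decided the call. More genes of the whole table passed in that fit too: 1944 of 18194 tested, against 1130 of 17514 with all samples. Summed neuron markers were 186, 434 and 868 CPM in Dlx2OE samples 1 to 3, in the same order as Gbx2, and 60.8, 292 and 165 CPM in WT samples, in another order. Their part in the Gbx2 values was not tested. Exons of Gbx2 share 946 bp with the antisense gene D130058E05Rik, which had 8, 3 and 5 counts in WT and 6, 12 and 17 counts in Dlx2OE.

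**Figure D3:**
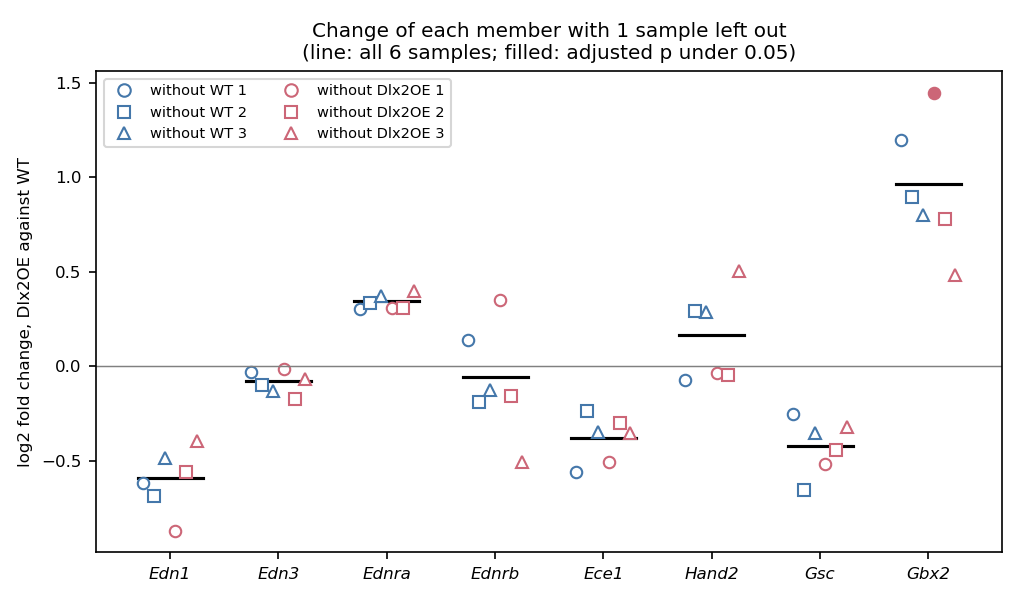
log2 fold change of Dlx2OE against WT (vertical axis) for the 8 tested members with each of the 6 samples left out in turn. Black lines are the values with all samples, and a filled symbol marks an adjusted p under 0.05. The filled symbol is Gbx2 without Dlx2OE sample 1, at 1.45, while Ednra stays between 0.30 and 0.40.

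Per kilobase of exon, the order of the levels in WT was Ece1 (26.9 CPM per kb), Gsc (22.7), Ednra (15.5), Ednrb (15.0), Edn3 (6.39), Hand2 (5.90), Edn1 (1.15), Gbx2 (0.418) and Hand1 (0.0228). Ranges over samples overlapped between neighbours from Ece1 down to Ednrb and between Edn3 and Hand2, and did not overlap at the other steps. In Dlx2OE the order was Ece1 (20.6 CPM per kb), Ednra (19.6), Gsc (17.0), Ednrb (14.4), Hand2 (6.62), Edn3 (6.05), Gbx2 (0.818), Edn1 (0.763) and Hand1 at 0. The pairs that changed places, Ednra with Gsc, Hand2 with Edn3 and Gbx2 with Edn1, overlapped in Dlx2OE. These levels use the full exon length, while union mode may drop reads from the exons that Hand2 and Gbx2 share with antisense genes. Per kilobase of unshared exon, an alternative added after the data were seen, Hand2 had 7.34 in WT and 8.23 in Dlx2OE and stood above Edn3 in both genotypes, with overlapping ranges, and Gbx2 had 0.740 and 1.45. The order of Hand2 and Edn3 in WT therefore depends on the length used. In both genotypes the receptors were measured well above the ligand Edn1 on this scale.

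Of 13 other genes of the endothelin pathway, all tested, 0 passed higher and 1 passed lower, against 2.99% and 3.46% of all genes. The median log2 fold change of the 13 was 0.05. The gene that passed was Mme, which encodes neprilysin, a peptidase that breaks down endothelins among other peptides (log2 fold change -0.90, SE 0.104, edgeR adjusted p = 0.0084). The next by p was Gna13, a G protein alpha subunit, at 0.45 (edgeR adjusted p = 0.0533), and it passed by DESeq2 (adjusted p = 0.0268).

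Among 13 other genes of the mandibular side, 0 passed higher and 2 passed lower, against 2.99% and 3.46% of all genes tested. The median log2 fold change was -0.33. Plagl1, a zinc finger factor, fell by 0.82 on the log2 scale (edgeR adjusted p = 0.0086), from 389 to 220.2 CPM on average. Rgs5, a regulator of G protein signalling known from pericytes, fell by 1.20 (edgeR adjusted p = 0.0176), a call lost without WT sample 2 (adjusted p = 0.0852) or Dlx2OE sample 2 (adjusted p = 0.0541). Dlx5 and Dlx6, which carry the Edn1 signal to ventral genes, had log2 fold changes of -0.15 (adjusted p = 0.781) and -0.24 (adjusted p = 0.745). Dlx4 had 2.50 from 0.317 CPM in WT (edgeR adjusted p = 0.0648, DESeq2 adjusted p = 0.00436), and Cited1 had -0.91 (edgeR adjusted p = 0.0678, DESeq2 adjusted p = 0.00855). DESeq2 passed 4 of the 13, against 12.6% of all genes it tested, and of the 4 Dlx4 was the gene that rose.

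Among 8 genes of the maxillary side, 3 passed higher and 0 passed lower, against 2.99% and 3.46% of all genes tested. As for the other lists, these genes were chosen with earlier results of these data known. The study itself names Pou3f3 among its most upregulated genes. The counts beside these shares are therefore no test of the list. The median log2 fold change was 0.45. DESeq2 passed 4 of the 8, with 3 higher and 1 lower, against 12.6% of all genes it tested in either direction. Irx5 rose by 2.26 on the log2 scale (edgeR adjusted p = 0.0049) and Pou3f3 by 1.80 (edgeR adjusted p = 0.0055). Foxl2 rose by 1.13 (edgeR adjusted p = 0.0456), and passed in 1 of 6 fits with a sample left out. Whether the maxillary and mandibular lists differ from each other was not tested.

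**Figure D4:**
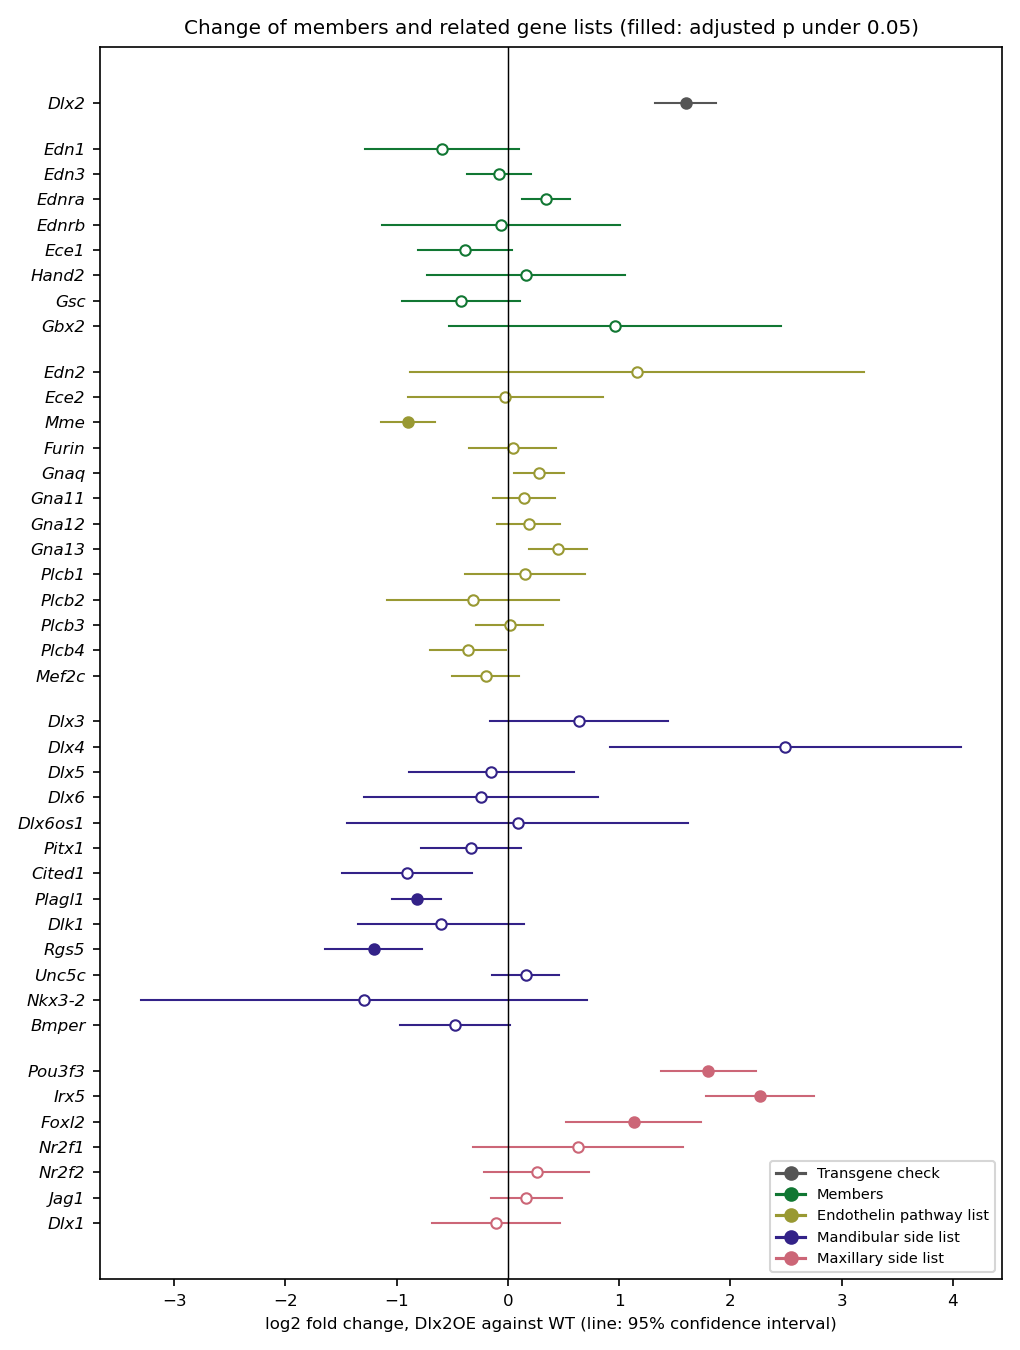
log2 fold change of Dlx2OE against WT (horizontal axis) with its 95% confidence interval for Dlx2, the 8 tested members and genes of the 3 lists. Filled points have an adjusted p under 0.05. Besides Dlx2 at 1.60, the filled points are Mme, Plagl1 and Rgs5 below 0 and Pou3f3, Irx5 and Foxl2 above 0, and no member is filled.

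Annotated genes that overlap a member or start within 50 kb of one were read in the same fit. There were 16 of them, 8 were tested and 0 passed, against 6.45% of all genes tested. The transcript 4933431K23Rik overlaps Ednra on the other strand. It had 60, 39 and 52 counts in WT and 66, 118 and 80 counts in Dlx2OE (log2 fold change 0.83, edgeR adjusted p = 0.114). Its groups did not overlap either, a pattern that 16.7% of all genes tested showed in this direction. Near Hand2, 5033428I22Rik had a log2 fold change of -0.98 (edgeR adjusted p = 0.141).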

How the data were processed

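Maxillary prominences of 3 WT and 3 Dlx2OE samples were sequenced as paired-end reads. Per the submitters' processing notes and the methods, the authors mapped filtered reads to mm10 with STAR 2.7.3a and counted them with HTSeq 0.12.4 in union mode. The values the authors deposited are raw counts per gene, without normalization. Union mode drops reads that overlap more than 1 gene. The annotation release and the strand setting are not given in the sources used here. Symbols and positions were taken from GENCODE M21 (GRCm38), which held 53706 of 53801 identifiers.

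Counts were tested with edgeR 4.0.16 (R 4.3.3): filterByExpr with a minimum count of 10, TMM scaling, and the quasi-likelihood F test on genotype, with Benjamini-Hochberg adjustment over 17514 genes. Passing means an adjusted p under 0.05. Log2 values use a prior count of 2. Floors cover counting error only. DESeq2 1.42.0 was an alternative, run on genes with at least 1 count. The other alternatives were RLE factors, library size alone, other filters on low counts, a replicate block and removal of each sample. Scripts were tested on simulated data. Figures were drawn with matplotlib 3.10.9.

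The members and the gene lists were chosen with earlier results of these data known. Named genes are all members, Dlx2, list genes that passed (or the smallest p, up to 2 a list), genes near a member, and the 3 genes most like a member that passed or whose groups did not overlap. A few list genes chosen this way are counted in their lists but not reported by name here.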

Additional observations from a re-analysis of the deposited data

How the results depend on the processing

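No member passed under any of the 7 alternatives that keep all 6 samples. With a sample left out, members passed or called numbered 0 to 1, the 1 being Gbx2 without Dlx2OE sample 1. Genes passed over the whole table were 1130, and 79 to 2091 with a sample left out, 2417 by DESeq2 and 2044 without a filter on low counts. Genes called beyond the fold limit were 546, and 74 to 1173 with a sample left out, 885 by DESeq2 and 1003 without the filter. One alternative was added after the data and the count of genes in the study had been seen: DESeq2 with genes at 0 in every sample kept in the table gave 2428 passed and 887 called, and the lists gave the same counts as under the planned DESeq2 run. Endothelin pathway genes passed were 1 to 2 with a sample left out, and 2 by DESeq2 and with at least 10 counts in every sample. Mandibular side genes passed were 1 to 2 with a sample left out, and 4 by DESeq2 and without the filter, and those called were 0 to 1, and 2 under the same settings. Maxillary side genes passed were 2 to 5 and called 2 to 4 with a sample left out. Under DESeq2, without the filter, with at least 10 counts in every sample and with the replicate block, 4 passed, 3 higher and 1 lower. The direction of some small differences turned. Ednrb had a log2 fold change of 0.024 with library size alone, and -0.51 to 0.35 with a sample left out (0.14 without WT sample 1). Hand2 ran from -0.071 to 0.50 (-0.04 without Dlx2OE sample 1 and -0.05 without Dlx2OE sample 2). Dlx5 ran from -0.47 to 0.17 (highest without WT sample 2), with 0.0044 without Dlx2OE sample 1, and Dlx6 ran from -0.68 to 0.33 (highest without WT sample 2). The cause was not tested. Replicate numbers did not pair the samples: deviations of same-numbered samples correlated at -0.07, -0.21 and 0.07. With the replicate block, 0 members passed. With levels scaled by library size alone, an alternative also added after the data were seen, Ednra was again the 1 member whose groups did not overlap. Low counts of Edn1, Gbx2 and Hand1 limit what could be seen for them.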
